A study of Mus musculus with 68 samples.

Results

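The genes described here encode the machinery that carries new proteins to the membrane of the endoplasmic reticulum (ER) and through or into it. They were chosen by name, as 36 genes of 8 complexes, and 35 of them are in the tables, which list 13197 genes for the founder strains and 12803 for the F1 crosses. Emc8 was not analysed here. RNA was measured in 68 libraries of mouse embryonic fibroblasts (MEFs), which are fibroblasts grown from mouse embryos. The 40 founder libraries came from the strains A/J (A), C57BL/6J (B6), 129S1Sv/ImJ (129), NOD/ShiLtJ (NOD), NZO/H1LtJ (NZO), CAST/EiJ (CAST), PWK/PhJ (PWK) and WSB/EiJ (WSB). The 28 F1 libraries came from crosses of a B6 mother with a CAST, 129, NOD, NZO or WSB father, written xCAST, x129, xNOD, xNZO and xWSB. Cells were treated for 4 h with tunicamycin (TM) at 2 ug/ml, or with DMSO alone as the control. The authors made 3 control and 3 TM libraries of each genotype and removed those that did not cluster with their own treatment. That choice used the contrast tested here, so it favours separate groups and small p-values, and its effect was not tested. Among the founders, 3 controls and 3 TM libraries were left for A and for PWK, 2 and 2 for B6 and for CAST, and 2 and 3 for each of the other strains. Each of x129, xNZO and xWSB had 3 and 3, while xCAST had 2 control and 3 TM and xNOD 3 control and 2 TM libraries. The MEFs of a genotype were a mix from several female embryos of the same litter, so a difference between genotypes also holds whatever set that litter apart. The paper describes wells treated in triplicate and no separate litters for the replicates of a genotype. The p-values therefore measure the spread between these libraries and not between litters.

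Most secreted and membrane proteins enter the ER through the Sec61 channel. A signal sequence is caught by the signal recognition particle (SRP) while the protein is still being made, the SRP receptor docks the ribosome at the membrane, and the TRAP and TRAM proteins help the chain through the channel. Signal peptidase then cuts the signal sequence off. Membrane proteins anchored by their tail are inserted by the GET pathway, and the ER membrane protein complex (EMC) inserts other transmembrane segments. TM blocks N-linked glycosylation, which leaves misfolded proteins in the ER, and cells answer with the unfolded protein response, in which the transcription factors ATF6 and XBP1 raise chaperones and other ER genes.

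Promoters are shown first because the response is best known for a DNA motif, the ER stress response element (ERSE, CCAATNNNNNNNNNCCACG), in which CCAAT and CCACG stand a fixed distance apart. RefSeq promoters (GRCm38.p6, 250 bases before and 50 after the start) matched 27 of the 36 genes. Those without a match were Sec61a1, Srp19, Srp68, Ssr2, Spcs3, Sec11c, Tram1, Emc2 and Emc8, so several genes that rose, Spcs3 among them, were not searched. None of the 27 held an ERSE, the related ERSE-II (ATTGG, any base, CCACG) or the UPRE core (TGACGTGG) on either strand, which 0.176%, 0.0783% and 1.07% of the 10217 founder-table genes with a promoter held. The CCACG part on its own was in 18 of 27 (66.7%), against 52.1% of those genes, and CCAAT on its own in 9 of 27 (33.3%), against 42.8%. A match is a run of letters and not a binding site, and a missing match says only that these letters are not in this window. Below, Hspa5, the main ER chaperone gene, is shown for a full ERSE at bases 186 to 204 of its window, counted from the 5′ end. It is 1 of 6 genes listed to check the treatment, all of which rose in the founders. Of the others, Herpud1 held an ERSE-II, while Ddit3, Xbp1, Sdf2l1 and Dnajb9 held none of the motifs, so strongly induced genes can lack them in this window. Spcs2 had the largest founder change among the genes with a promoter. Sec63 was chosen after its values were seen. Both Spcs2 and Sec63 hold CCAAT and CCACG, but not at the distance of the ERSE. Capitals mark CCAAT and CCACG on either strand.
Hspa5 (chr2:34771840-34772139, + strand): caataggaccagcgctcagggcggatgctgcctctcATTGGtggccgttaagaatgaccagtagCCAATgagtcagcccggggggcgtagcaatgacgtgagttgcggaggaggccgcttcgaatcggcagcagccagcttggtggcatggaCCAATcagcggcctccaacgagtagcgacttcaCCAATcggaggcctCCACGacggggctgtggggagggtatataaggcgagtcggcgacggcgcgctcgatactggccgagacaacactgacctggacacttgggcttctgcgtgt
Spcs2 (chr7:99858834-99859133, - strand): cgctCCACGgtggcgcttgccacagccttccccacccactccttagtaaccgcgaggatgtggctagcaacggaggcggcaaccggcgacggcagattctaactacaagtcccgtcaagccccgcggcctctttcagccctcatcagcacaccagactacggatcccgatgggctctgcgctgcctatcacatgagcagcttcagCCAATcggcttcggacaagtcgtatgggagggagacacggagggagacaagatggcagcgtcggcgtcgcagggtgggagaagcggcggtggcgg
Sec63 (chr10:42761246-42761545, + strand): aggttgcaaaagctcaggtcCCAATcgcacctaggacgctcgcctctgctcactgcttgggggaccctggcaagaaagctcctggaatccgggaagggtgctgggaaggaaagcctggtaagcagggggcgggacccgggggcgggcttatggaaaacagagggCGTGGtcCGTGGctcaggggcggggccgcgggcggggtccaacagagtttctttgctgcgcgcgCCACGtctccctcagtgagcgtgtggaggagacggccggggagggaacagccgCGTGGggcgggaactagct

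Founder libraries with recovered reads held 7091923 to 21530282 reads on genes and F1 libraries 6442976 to 29528457, and TM libraries were shallower than controls, with a median of 10730220 against 14072068 in the founders. Apart from Srp54a, every gene of the set had at least 85 reads in each of these founder libraries and at least 117 in each F1 library. Levels below are normalised signal, which is reads on a gene scaled for the size of each library and not divided by length, and founders and F1 were scaled separately. Hspa5 rose from 787 to 1587 in the 18 founder controls to 5106 to 8816 in the 22 founder TM libraries, and Ddit3, the stress-induced gene for CHOP, from 26.1 to 68.7 to 332 to 1199. All 10 fibroblast markers were listed among the genes, with a summed signal of 11568 to 46792 per library. The sum hides single markers, since 8 of the 10 differed among the founder controls, against 35.8% of all genes. Thy1 differed most, highest in 129 and lowest in CAST, a range of 7.78 on the log2 scale. Lum reached the filter on low values in 7 strains and 4 crosses. By the test described below 3 of the 10 fell with TM in the founders, against 21.9% of all genes, Thy1 most (-0.42). Myeloid markers summed to 7.24 to 64.6 in the founders (8 of 8 genes listed), and 3 fell, against the same 21.9%, Lyz2 most at -1.04. Endothelial markers summed there to 1.67 to 17.9 and epithelial markers to 2.8 to 78.3, with none past the test. Their part in the changes below was not tested.

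The first question was which genes of the set changed with TM when all strains are averaged. The signal was tested on the log2(value + 0.1) scale with limma across all genes, as the mean of the 8 strain differences, and a gene rose or fell where its Benjamini-Hochberg adjusted p was below 0.01. By this test 16 of the 35 genes rose and 5 fell, while 20.5% of all genes rose and 21.9% fell. At 1.5 fold or more, 3 of the 35 rose (Spcs2, Spcs3 and Sec11c) and 0 fell, against 6.04% and 5.41% of all genes. In the F1 crosses, tested the same way in libraries that share no sample with the founders, 13 rose and 5 fell, against 16.9% and 18.7%. At 1.5 fold or more, 4 rose there (Srp19, Spcs2, Spcs3 and Sec11c) and 0 fell, against 4.95% and 5.54%. All 13 of these rises were also rises in the founders, and Srp72, Srpr and Ssr2 passed only in the founders, a difference that was not itself tested. Bag6, Emc1, Tram2 and Wrb fell in both sets, Emc10 only in the founders and Asna1 only in F1. In bulk RNA a lower share of a transcript can come from fewer cells that make it or from less of it per cell, and these cannot be told apart.

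**Figure D1:**
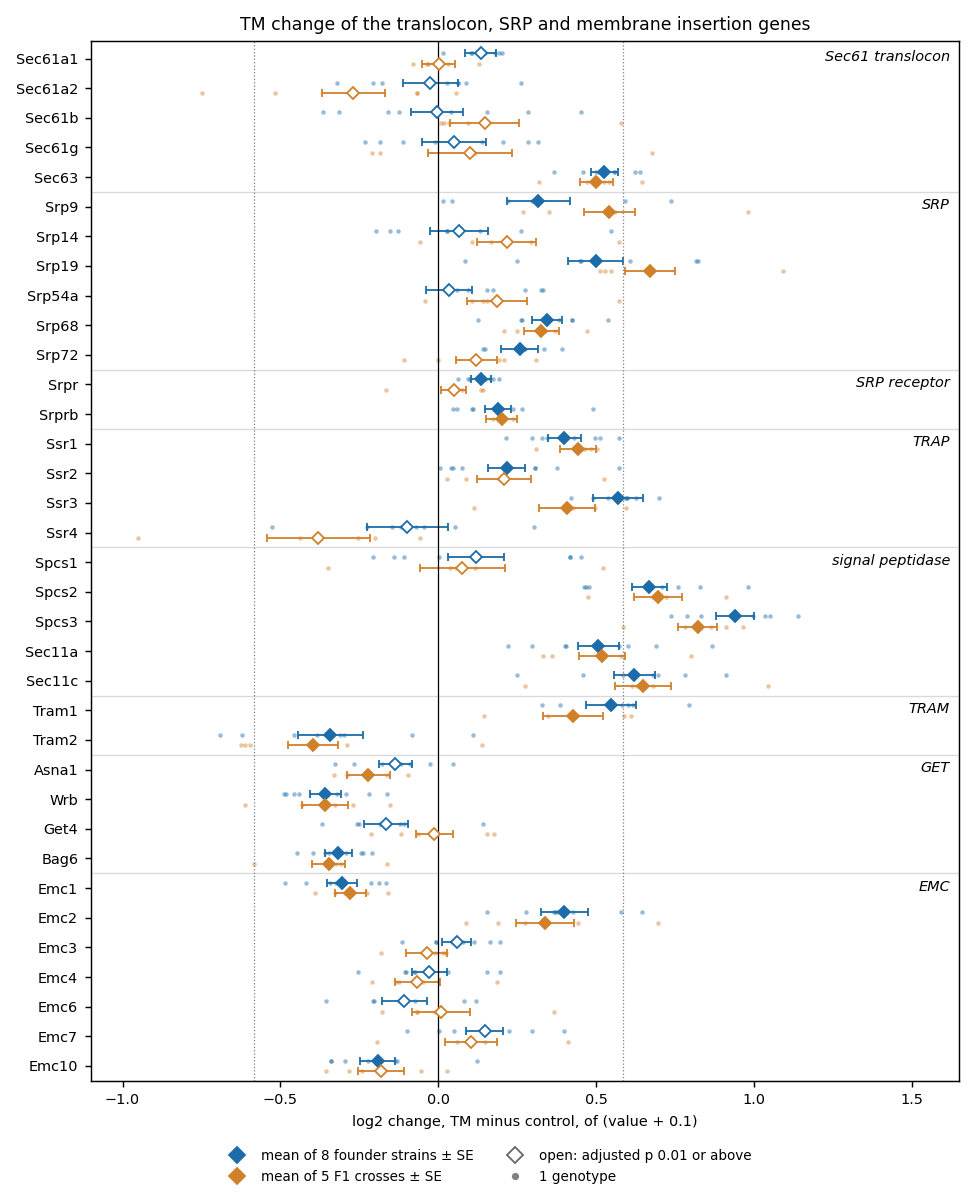
Change with TM of the 35 genes on the log2 scale, grouped by complex. Diamonds are the mean over the 8 founder strains (blue) or 5 F1 crosses (orange) with its standard error, filled where the adjusted p was below 0.01, small dots are single genotypes and dotted lines mark 1.5 fold. The rises past 1.5 fold in the founders are the signal peptidase genes Spcs2, Spcs3 and Sec11c, and the falls lie among GET, EMC and Tram2.

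Signal peptidase changed most. It cuts signal sequences with a catalytic subunit, SEC11A or SEC11C, held by the accessory subunits SPCS1, SPCS2 and SPCS3, of which SPCS3 is needed for activity. In the founders 4 of its 5 genes rose, against 20.5% of all genes, and 1 did not pass, with a median change of 0.62 on the log2 scale. The same 4 rose in F1, against 16.9% of all genes, with a median over the 5 genes of 0.65.

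Spcs3 had the largest change of the set, with a founder mean of 0.94 on the log2 scale (SE 0.061, adjusted p = 1e-13, limma), or 1.92 fold, and an F1 mean of 0.82 (SE 0.0613, adjusted p = 2.17e-10), or 1.77 fold. In B6 its signal was 69.8 and 64.3 in the controls and 139 and 139 with TM. In PWK it was 49.8, 58.7 and 60.7 in the controls and 136, 130 and 107 with TM. The TM libraries lay above the controls without overlap in both strains, although PWK started from the lowest control level of the 8 strains. In A, which had the highest control level, it went from 131, 126 and 114 to 223, 241 and 182. In NOD, which had the smallest founder change (0.74), it went from 110 and 70.4 to 166, 144 and 132. The ranges were separate in all 13 genotypes, which 22.5% of all gene and strain pairs showed in the founders and 19.4% of gene and cross pairs in F1. The call within a single genotype, with an adjusted p below 0.01 and at least 1.5 fold, held for Spcs3 in B6, CAST, PWK, WSB, x129, xNOD and xNZO.

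Spcs2 rose by 0.67 (SE 0.0565) in the founders and 0.69 (SE 0.0757) in F1. Its signal went from 58.8 to 90.5 in founder controls, with a median of 67.5, to 88.2 to 150 with TM, with a median of 109. Those ranges overlapped slightly, but within a genotype the TM libraries were above the controls in 12 of 13. Sec11c rose by 0.62 (SE 0.0656) and 0.65 (SE 0.0879). It was the least abundant gene of the set per kb of transcript, with a median of 4 in founder controls, while Sec11a, the other catalytic subunit, had 20.5. Values per kb, here and below, use the longest annotated transcript of a gene. The form that these cells make was not determined, so the ranking depends on that choice. Sec11a rose by 0.51 (SE 0.0651) and 0.52 (SE 0.0728), so both catalytic subunits went up.

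Spcs1 differed from the other subunits. Its founder mean was 0.12 (SE 0.0889, adjusted p = 0.26) and its F1 mean 0.08 (SE 0.135, adjusted p = 0.66), and the TM and control libraries overlapped in 10 of 13 genotypes. SPCS1 is the small subunit that is not needed for cutting itself. Its change went from -0.21 in NZO to 0.45 in 129 among the strains, and from -0.35 in xWSB to 0.52 in xNOD among the crosses.

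**Figure D2:**
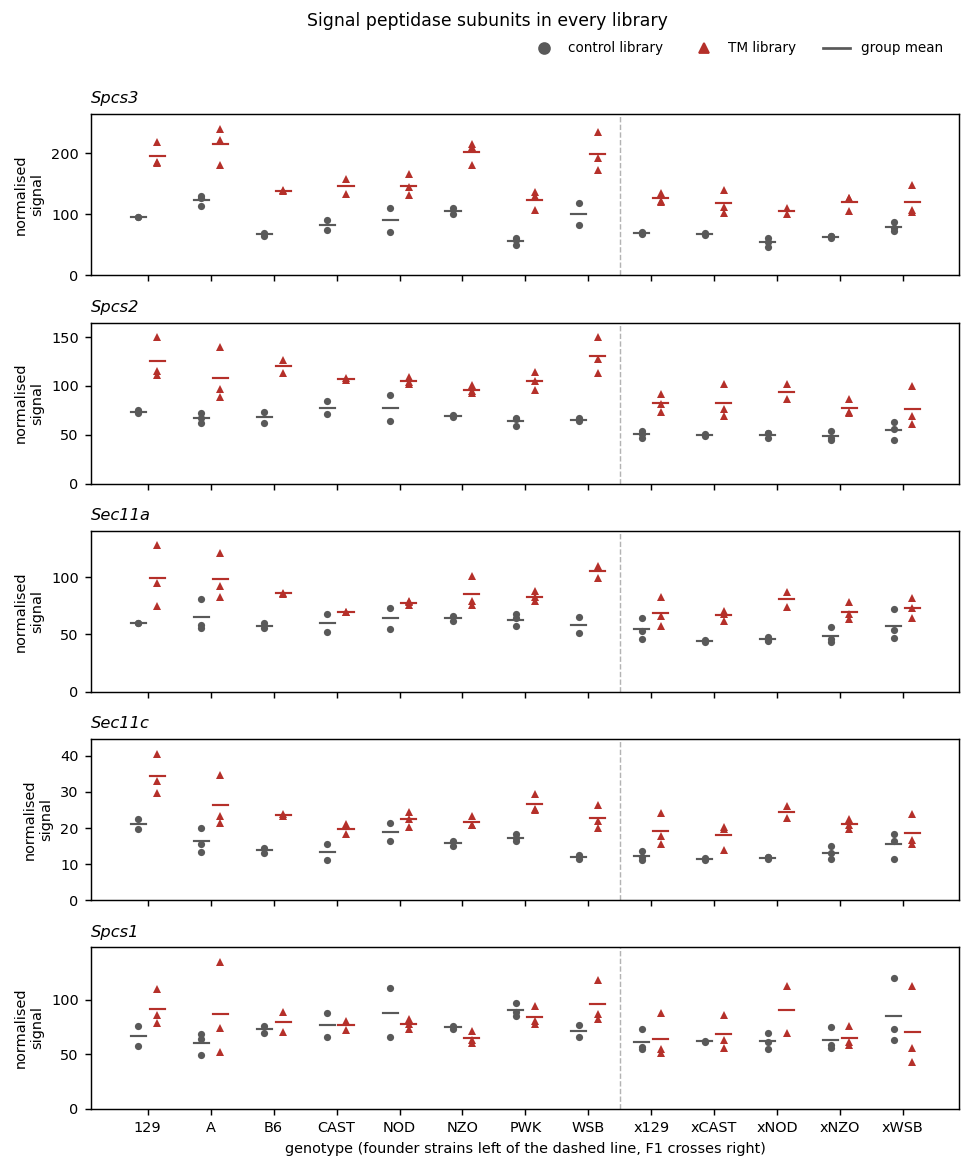
Normalised signal of the 5 signal peptidase genes in every library, by genotype, with controls as grey circles, TM libraries as red triangles and group means as short lines. Spcs3 is higher in the TM libraries of all 13 genotypes, while the groups of Spcs1 overlap in 10 of them.

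In the Sec61 complex 1 of 5 genes rose, near the 20.5% of all genes, and 3 of 5 after the correction for GC content and length described further on. The 1 gene was Sec63, a J-domain partner of the channel that brings the chaperone BiP, the product of Hspa5, to its lumenal side. It rose by 0.53 (SE 0.0422, adjusted p = 1.22e-11) in the founders and 0.50 (SE 0.0521, adjusted p = 4.43e-08) in F1. The founder controls ran from 131 to 209 with a median of 149, and the TM libraries from 198.5 to 262 with a median of 216. In B6 it was 143 and 134 against 199 and 209, and in CAST, the strain with the most, 209 and 173 against 260 and 262. The TM libraries lay above the controls in 12 of 13 genotypes, and the change ran from 0.32 in xWSB to 0.64 in xCAST.

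On the values as deposited, none of the 4 channel subunits passed the test in either set. Sec61a1, which forms the pore and was the most abundant gene of the set per kb of transcript (median 138 in founder controls), had a founder mean of 0.13 (SE 0.0492, adjusted p = 0.022) and an F1 mean of 0.00 (SE 0.0521, adjusted p = 0.98). Single libraries decide its founder call, since its adjusted p was 0.0079 without TM replicate 1 of 129 and 0.0095 without TM replicate 3 of NZO. Sec61b and Sec61g, the small subunits at the side of the pore, had founder means of 0.00 (SE 0.0819) and 0.05 (SE 0.102). Sec61a2, a second form of the pore subunit, had a median of 7.21 per kb and a founder mean of -0.03 (SE 0.0882). Its F1 mean was -0.27 (SE 0.0989, adjusted p = 0.028). Without control replicate 1 of xWSB it was -0.33 with an adjusted p of 0.0028.

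In the SRP 4 of 6 genes rose in the founders and 3 in F1, against 20.5% and 16.9% of all genes. Srp19, which helps the SRP RNA to fold, rose by 0.50 (SE 0.0863) and 0.67 (SE 0.0791). In xNOD it went from 26.8, 25.9 and 22.2 to 53.9 and 52.4, a 1.09 change on the log2 scale, and in CAST its change was 0.08. Srp68 rose by 0.35 (SE 0.0476) and 0.33 (SE 0.0549) and its partner Srp72 by 0.26 (SE 0.0581) in the founders, with an F1 mean of 0.12 (adjusted p = 0.14). Srp9, which with Srp14 forms the part that slows translation, had a founder mean of 0.32 with an adjusted p of 0.0089, just under the threshold, and leaving out any of 30 of the 40 libraries brought it over, to at most 0.024. In F1 Srp9 rose by 0.54 (SE 0.0815, adjusted p = 8.78e-06). Srp14 did not pass in either set, with 0.06 (SE 0.0918) in the founders and 0.22 (SE 0.0936, adjusted p = 0.06) in F1. Without control replicate 1 of xWSB the F1 mean of Srp14 was 0.27 with an adjusted p of 0.0066.

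Srp54a, which binds the signal sequence, did not pass either, with a founder mean of 0.03 (SE 0.0722). That mean includes CAST, where the gene is near 0, while in the 7 strains where it could be tested the change was above 0, from 0.06 in A to 0.33 in NZO. Its level set CAST and PWK apart. In the 30 libraries of the other 6 founder strains it was between 23.2 and 49.9. In PWK it was 2.13, 2.05 and 2.53 in the controls and 3.69, 2.82 and 2.14 with TM. In CAST it was 0.518 and 0.329 in the controls and 0.106 and 0.165 with TM, which are 10, 4, 1 and 3 reads. The xCAST cross, with a CAST father, had 7.23 and 8.04 in the controls, below the 17.7 to 28.4 of the other 12 F1 controls, and 9.22, 12.3 and 13 with TM, below the 15.7 to 33.1 of the other 11 TM libraries. The mouse genome holds near-identical copies of this gene, Srp54b and Srp54c, which were not analysed here, so reads may be split or lost between copies differently in each strain's genome and the level is uncertain. It was not tested within CAST, where it did not reach the filter on low values.

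**Figure D3:**
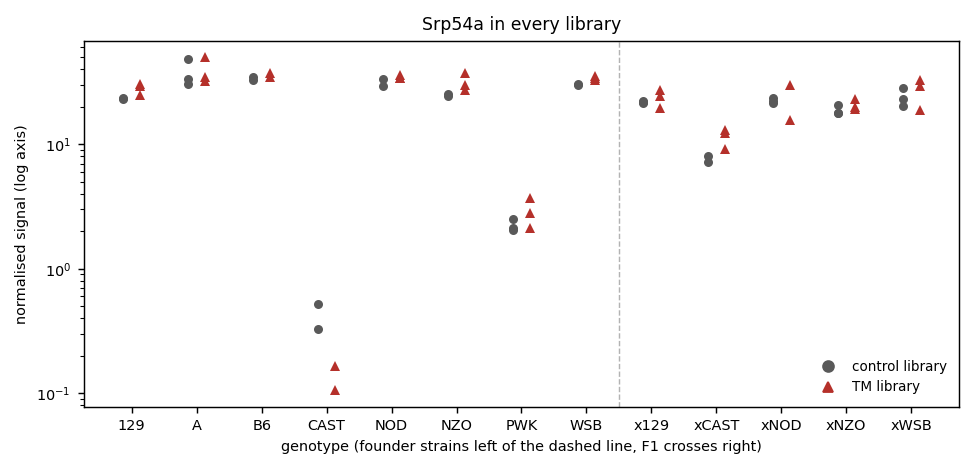
Normalised signal of Srp54a in every library on a log axis, by genotype, with controls as grey circles and TM libraries as red triangles. CAST lies between 0.106 and 0.518 and PWK between 2.05 and 3.69, below the 23.2 to 49.9 of the other founders, and xCAST lies below the other crosses.

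Both SRP receptor genes rose in the founders, by small amounts, where 20.5% of all genes rose. Srprb, the subunit that anchors the receptor in the membrane, rose by 0.19 (SE 0.0415, adjusted p = 0.00031) and in F1 by 0.20 (SE 0.0494, adjusted p = 0.0018). In B6 its signal was 125 and 127 in the controls and 151 and 139 with TM, and in PWK 122, 116 and 116 against 150, 132 and 136. The groups did not overlap in either strain. Srpr, the subunit that meets the SRP, rose by 0.13 (SE 0.0328) in the founders and had an F1 mean of 0.05 (SE 0.0398).

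The TRAP complex sits beside the channel and helps chains with weak signal sequences. It rose for 3 of 4 genes in the founders and 2 of 4 in F1, against 20.5% and 16.9% of all genes. Ssr3 rose by 0.57 (SE 0.0791, adjusted p = 5.35e-07) and 0.41 (SE 0.0877, adjusted p = 0.00052). In B6 it went from 426 and 367 to 604 and 593, and over all founders from a median of 367 to a median of 577, with overlapping ranges (255 to 478 and 371 to 794). The groups were separate within 8 of 13 genotypes. Ssr1 rose by 0.40 (SE 0.0519) and 0.44 (SE 0.057), and Ssr2 by 0.22 (SE 0.0575) in the founders with 0.21 (adjusted p = 0.051) in F1, where it passed without control replicate 1 of xWSB (adjusted p = 0.0088). Ssr4 did not pass, with -0.10 (SE 0.127) and -0.38 (SE 0.164, adjusted p = 0.06), and in F1 it passed without TM replicate 1 of xWSB (-0.49, adjusted p = 0.0028). Ssr4 was lower than control in 6 of 8 strains and 5 of 5 crosses.

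The paralogs Tram1 and Tram2, membrane proteins next to the channel, moved in opposite directions. Tram1 rose by 0.55 (SE 0.0792) and 0.43 (SE 0.0953), and Tram2, which is known for its part in collagen synthesis, fell by 0.34 (SE 0.103, adjusted p = 0.0059) and 0.40 (SE 0.0785, adjusted p = 0.00022). In B6 Tram1 went from 62.4 and 58.7 to 93.5 and 92.4, and Tram2 from 49 and 48.8 to 40.5 and 38.3. In PWK Tram1 was 91.9, 109 and 103 against 145, 134 and 105, which overlap, and Tram2 92, 92.9 and 95.9 against 71.8, 84.5 and 72.3, which do not. Per kb the founder controls had a median of 27.1 for Tram1 and 8.05 for Tram2. Tram2 was above control in NOD (0.11) and x129 (0.14), and its founder call was lost without any of 6 single libraries, with an adjusted p of at most 0.013. These were control replicate 3 of 129, CAST, NOD and WSB, control replicate 2 of NZO and TM replicate 3 of B6.

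Of the 4 GET genes 2 fell in the founders and 3 in F1, against 21.9% and 18.7% of all genes. In both sets 0 rose, against 20.5% and 16.9%. Wrb, the membrane receptor that takes tail-anchored proteins from the carrier, fell by 0.36 (SE 0.0505, adjusted p = 7.17e-07) in the founders and 0.36 (SE 0.073, adjusted p = 0.00032) in F1. It was below control in all 13 genotypes. In PWK its signal was 23.9, 24.5 and 23.8 in the controls and 19, 17.5 and 16.1 with TM, and in CAST 37.2 and 40.2 against 33.9 and 29.5. The TM libraries lay below the controls without overlap in 11 of 13 genotypes, and 23.7% of gene and strain pairs and 20.3% of gene and cross pairs did so. Bag6, a chaperone that holds tail-anchored proteins before they reach the carrier, fell by 0.32 (SE 0.0426, adjusted p = 3.13e-07) and 0.35 (SE 0.0527, adjusted p = 9.97e-06). In xNOD it went from 246, 217 and 224 to 148 and 157. This was the single decrease within a genotype that passed both the test (adjusted p = 0.0092, limma) and 1.5 fold. Larger decreases did not pass the test, such as Ssr4 (-0.95) and Sec61a2 (-0.75) in xWSB and Tram2 in WSB (-0.69). The Bag6 call was lost without any 1 of the xNOD controls. In B6 the signal of Bag6 went from 254 and 276 to 221 and 211. Asna1, the ATPase that carries the proteins, had -0.14 (adjusted p = 0.028) in the founders and fell by 0.22 in F1 (adjusted p = 0.0093), a call lost without any of 20 of the 28 F1 libraries. Without TM replicate 2 of A the founder mean of Asna1 passed too (-0.16, adjusted p = 0.0021). Get4 did not pass in either set, with -0.17 (adjusted p = 0.043) and -0.01, although its founder mean passed without TM replicate 3 of NZO (-0.20, adjusted p = 0.0032).

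Of the 7 EMC genes 1 rose, 2 fell and 4 did not pass in the founders, near the 20.5% and 21.9% of all genes that rose and fell. In F1 1 rose, 1 fell and 5 did not pass, near the 16.9% and 18.7% of all genes. Emc1, its large lumenal subunit, fell by 0.30 (SE 0.047) and 0.28 (SE 0.0493), and was below control in all 13 genotypes. In B6 it was 71 and 75.6 in the controls and 61.8 and 55.4 with TM. Emc10 fell by 0.19 (SE 0.0559, adjusted p = 0.0048) in the founders and had -0.18 (adjusted p = 0.041) in F1. The founder call was lost without control replicate 2 of WSB (adjusted p = 0.012), and the F1 mean passed without control replicate 3 of xWSB (adjusted p = 0.0031). In B6 it was 129 and 126 against 119 and 112, without overlap, and in PWK 141, 112 and 117 against 123, 113 and 102, with overlap. Emc2, a cytosolic subunit of the core, went the other way, by 0.40 (SE 0.075) and 0.34 (SE 0.0929). It was 42.1, 38.5 and 46.7 in PWK controls and 63.8, 54.9 and 47.3 with TM. Its F1 call was lost without control replicate 3 of xCAST (adjusted p = 0.013) or TM replicate 1 of xNOD (adjusted p = 0.016). Emc3, Emc4, Emc6 and Emc7 lay between -0.11 and 0.15 in the founder mean.

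GC content moved with these changes. The quintile of all genes with the lowest GC content of the longest annotated transcript had a median founder change of 0.24 on the log2 scale and the quintile with the highest -0.26. Of the 35 genes, 10 belong to the low-GC quintile and 7 of them rose while 0 fell, and 6 belong to the high-GC quintile, of which 1 rose and 2 fell. Over all genes pooled, whatever their GC content, 20.5% rose and 21.9% fell. The shares within each quintile were not counted, so these counts do not set the 35 genes apart from others of like GC content. Over the 35 genes, which share the same libraries, Pearson's r of GC content with the founder change was -0.62 and Spearman's rho -0.64, and in F1 -0.56 and -0.59. As an alternative chosen after seeing the data, a smooth trend on GC content and length was removed from each library. This also removes any real response that follows GC content. After it, 14 genes rose and 3 fell in the founders, against 19.4% and 18.7% of all genes. In F1 12 rose and 4 fell, against 18.5% and 15%.

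Of the 16 rises, 12 remained, among them all 4 in signal peptidase, with Spcs3 at 0.59, Spcs2 at 0.55, Sec11c at 0.54 and Sec11a at 0.25. Sec63 (0.42), Ssr1 (0.43) and Srp68 (0.45) remained too. Ssr3 went from 0.57 to 0.21 and Tram1 from 0.55 to 0.23, and in F1 both lost the call, with 0.11 (adjusted p = 0.098) for Ssr3 and 0.16 (adjusted p = 0.084) for Tram1. In the founders Emc2 (0.01), Srp19 (0.21), Srp72 (0.10) and Srp9 (0.30, adjusted p = 0.019) no longer passed. In F1 Srp19 (0.44, adjusted p = 9.4e-05, limma) and Srp9 (0.56, adjusted p = 1.9e-05) kept their rise, and Emc2 (-0.04) lost it. Of the 5 decreases only Wrb remained (-0.41), and Bag6 (0.00), Emc1 (-0.13), Emc10 (0.04) and Tram2 (-0.17) no longer passed. In the founders Sec61a1 (0.26) and Sec61b (0.24) rose only after the correction, and Spcs1 (-0.25) and Emc6 (-0.20) fell only after it. In F1 these were Sec61b (0.29) and Ssr2 (0.29), which rose, and Sec61a2 (-0.45) and Spcs1 (-0.30), which fell. In both sets, with and without it, 8 genes rose (Sec11a, Sec11c, Sec63, Spcs2, Spcs3, Srp68, Srprb and Ssr1) and 1 fell (Wrb). The part of GC content in the other changes was not tested further.

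**Figure D4:**
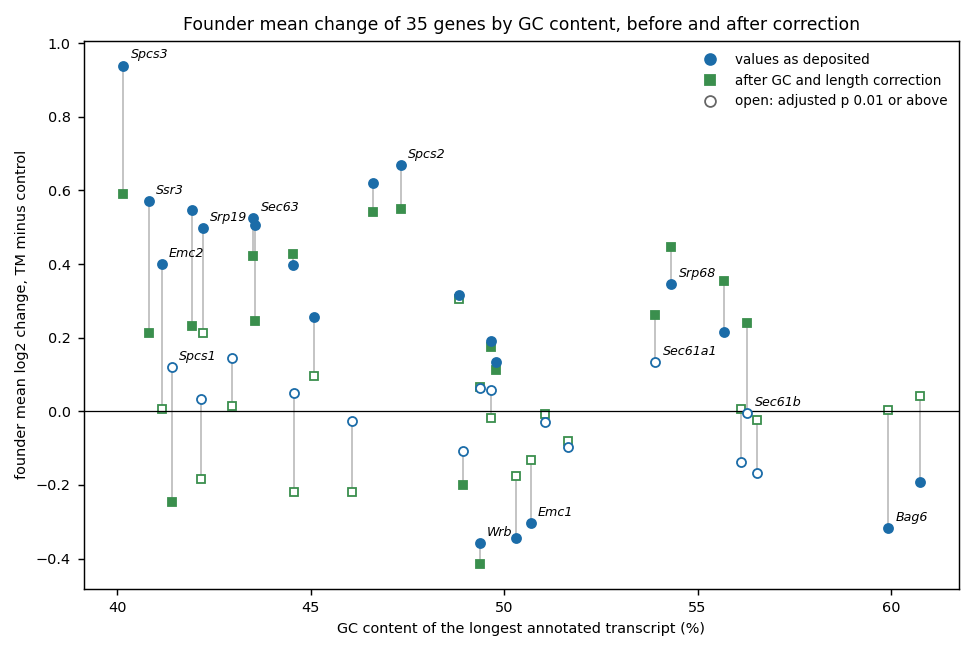
Founder mean change on the log2 scale of the 35 genes against the GC content of the longest annotated transcript, as deposited (blue circles) and after removal of a trend on GC content and length (green squares), joined by a grey line and filled where the adjusted p was below 0.01. Spcs3 stays high at 0.59, Wrb stays low at -0.41, and Bag6 and Emc2 move to near 0.

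The next question was whether the strains responded differently. In the founders 0 of the 35 genes passed the strain by TM interaction in limma, where 0.174% of all genes did, and 0 passed the cross by TM interaction in F1, where 0.0547% did. The smallest adjusted p was 0.20 (Srp54a) and 0.78 (Tram2), and the value of Srp54a includes CAST, where the gene had 1 to 10 reads and did not reach the filter on low values. At an unadjusted p below 0.05 these were the single gene in each set, and edgeR called 0 in both sets, with 0 and 2 at an unadjusted p below 0.05. Spcs3 ran over the strains from 0.74 (NOD) to 1.14 (PWK) and Sec63 from 0.37 (NOD) to 0.64 (129). With these replicates a strain difference was not detectable, which does not show that the strains responded alike.

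Within single genotypes the 35 genes gave 16 induced calls over the 8 strains, where 2.4% of all gene and strain tests gave one, and 11 over the 5 crosses, against 2.54%. Lowered calls numbered 0 and 1, against 1.55% and 1.47%. In the founders edgeR gave 0 lowered calls too, and limma 1 at an unadjusted p below 0.05 and 1.5 fold. There were 6 induced calls in B6, where 5.04% of all genes were induced, 6 in WSB (2.85%), 3 in PWK (6.36%) and 1 in CAST (2.54%). In the crosses there were 6 in xNOD (3.69%), 4 in x129 (4.88%) and 1 in xNZO (1.44%). No gene of the set was called in 129 (0.315%), A (0.346%), NOD (1.45%), NZO (0.32%), xCAST (2.52%) or xWSB (0.185%). Spcs3 was called in 7 genotypes, Spcs2 in 5, Sec11c in 4, Srp19 in 3, and Srp9, Ssr3, Sec11a and Tram1 in 2 each. The 16 calls became 3 with eBayes without trend and 29 without the fold limit. The 11 became 1 without trend, 5 after the correction for GC content and length and 19 at an adjusted p below 0.05. These counts also rest on few libraries. The 6 calls of WSB became 0 without TM replicate 2 or control replicate 2, 1 without TM replicate 1 and 2 without control replicate 3. The 6 of xNOD became 0 without any of its 3 controls and 14 without TM replicate 2. The 6 of B6 became 3 without control replicate 3, and the 4 of x129 became 1 without control replicate 1 and 2 without any other library except TM replicate 3. CAST went from 1 to 0 without TM replicate 2 and to 5 without control replicate 1, and xNZO from 1 to 0 without any of TM replicates 1 and 2 and control replicates 1 and 2. From 0, xCAST went to 6 without TM replicate 3, NOD to 4 without control replicate 1, NZO to 4 without TM replicate 3 and 129 to 3 without TM replicate 3.

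Short transcripts moved with the genotype. The shortest quintile of all transcripts had a median change of 0.21 in WSB and 0.25 in xNOD, and of -0.20 in NZO, -0.19 in CAST and -0.17 in NOD. The small subunits were higher in WSB and xNOD than in those 3 strains. Sec61b changed by 0.45 in WSB, 0.58 in xNOD, -0.36 in NZO, -0.16 in CAST and -0.32 in NOD. Sec61g had 0.28 and 0.68 in the former and -0.23, -0.19 and -0.11 in the latter, and Srp14 0.55 and 0.57 against -0.13, -0.20 and -0.15. Spcs3, Sec63 and Wrb kept their sign in all 13 genotypes. A kept sign does not show that a change was the same in each genotype. Wrb too was highest in WSB (-0.16) among the strains and xNOD (-0.15) among the crosses, and lowest among the strains in NZO (-0.49). Spcs2, which is not in the shortest quintile, was also highest in WSB (0.98) and xNOD (0.91), while Sec63 was highest in 129 and xCAST. Emc2, which is in that quintile, was above 0 in all 13 genotypes. Transcript length was not tested as a part of the genotype differences.

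**Figure D5:**
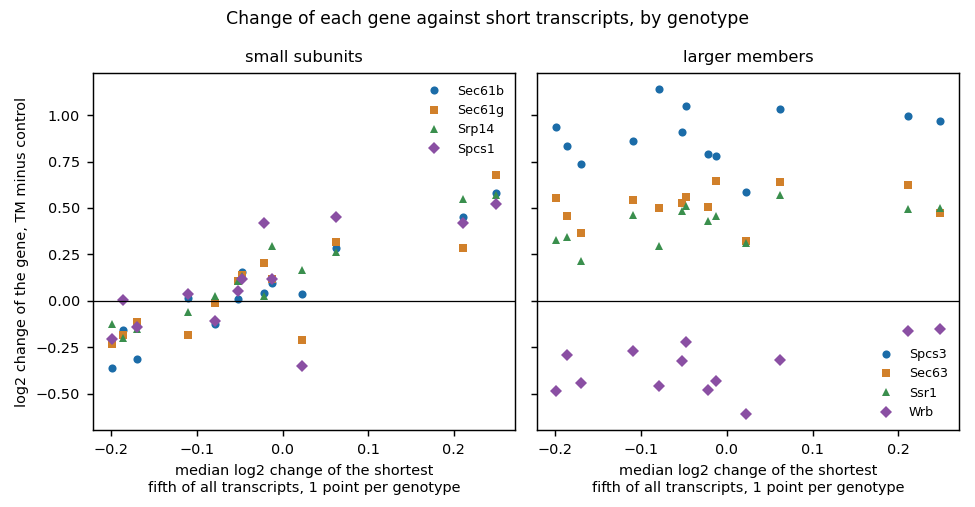
Change with TM of 4 small subunits (left) and 4 larger members (right) against the median change of the shortest quintile of all transcripts, on the log2 scale, with 1 point for each of the 13 genotypes. The small subunits run from below 0 to above 0 along the axis, while Spcs3 and Sec63 stay above 0 and Wrb below 0 in all 13.

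The last question was whether the strains differed before stress. Among the 18 founder controls, 7 of the 35 genes differed over the strains by limma's F test at an adjusted p below 0.01, against 35.8% of all genes. Srp54a stood first, as described above (F = 263, adjusted p = 5.33e-11). Emc1 was next (F = 12.8, adjusted p = 0.00019), with 104, 93.3 and 98.2 in PWK and 38.7 and 49.5 in CAST, while B6 had 71 and 75.6. These 3 strains did not overlap. Spcs3 was highest in A and lowest in PWK, a range of 1.14 on the log2 scale, Ssr2 highest in PWK and lowest in B6 (0.72), Wrb highest in CAST and lowest in A (0.78), Tram2 highest in PWK and lowest in A (1.11), and Emc10 highest in A and lowest in NOD (0.90). The low levels of Wrb and Tram2 in A come with 1 low library, control replicate 1, at 19.6 and 27.7. Wrb had 24.5 and 23.8 in the other A controls, near PWK (23.9, 24.5 and 23.8). Tram2 had 55.5 and 52.2 there, above B6 (49 and 48.8). Without control replicate 1 of A the count was 13. Sec11a had the smallest F of the set (0.25), with a range of 0.15. F1 controls were not tested in this way.

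Of 14 further translocon and insertion factors that were listed, 3 rose and 4 fell in the founders, near the 20.5% and 21.9% of all genes, with the largest rise in Ccdc47, a partner of the channel for multipass proteins (0.49, SE 0.0591), and the largest decrease in Ncln (-0.32, SE 0.0396). Of the 12 oligosaccharyltransferase genes, the enzyme that TM leaves without its substrate, 5 rose and 1 fell, against the same 20.5% and 21.9%. The largest rise was in Magt1 (0.67, SE 0.0851) and the largest decrease in Ost4 (-0.52, SE 0.076). After the correction for GC content and length 6 rose and 3 fell, against 19.4% and 18.7% of all genes. Of the 2 genes of the nascent polypeptide-associated complex, which guards chains as they leave the ribosome, 1 rose, against 20.5% of all genes. It was Btf3 (0.25, SE 0.0804, adjusted p = 0.0099). The counting is not stated to use strand, and exons of Emc4, Sec61a2, Spcs1 and Srpr overlap a gene on the opposite strand and those of Srprb a gene on the same strand, so their reads may include some of the neighbour.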

How the data were processed

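For alignment the authors used TopHat 1.4.1 with a genome made for each strain. They normalised with TMM in edgeR, removed outlying libraries after principal components analysis and normalised again. The deposited tables call the values FPKM, but within a library all values are multiples of the same smallest step (tolerance 0.05 reads), so the deposited values were used as signal, reads scaled for library size by TMM and not divided by length. Whole reads were recovered in 66 of 68 libraries (100% of values whole). The 3 lines of reads on no gene in the F1 tables (15.5 to 24.1% of the signal) were left out.

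Genes with at least 0.5 in at least 2 libraries of a fit were tested on log2(value + 0.1) with limma 3.58.1 (R 4.3.3, eBayes with trend) and Benjamini-Hochberg adjustment over all genes, as the mean of the genotype differences, within genotypes (adjusted p below 0.01 and 1.5 fold), as interaction and over founder controls. edgeR 4.0.16 on recovered reads was an alternative. Scripts were tested on simulated data. Coordinates are from GRCm38. Library values are given for the gene of each complex with the largest founder change, genes that fell, and the top strain differences. For other lists the largest rise and fall are named. The genes and lists were chosen with earlier results of these data known. A promoter sequence withheld from this text is not reported here.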

Additional observations from a re-analysis of the deposited data

How the results depend on the processing

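Over the founders 16 genes rose and 5 fell. The count of rises stayed between 14 and 16 under a pseudocount of 1, no filter, a mean of at least 2, median-of-ratios scaling, eBayes without trend, GC and length correction and edgeR on recovered reads, and the count of decreases became 3 under the correction and under edgeR. Samples with the same replicate number had r from -0.53 to 0.31 (29 pairs, 7 over 0.1). These r values use deviations from means of 2 or 3 libraries, which mirror each other in groups of 2. They therefore cannot decide whether the numbers pair samples, and the main fits did not use the numbers. With the replicate number as a block, 11 rose and 3 fell in the founders and 12 and 5 in F1, and in the 6 strains where the block could be fitted 9 calls were induced, against 9 without it. In F1 the other alternatives gave 12 or 13 rises and 4 or 5 decreases.

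Within strains the 16 induced calls became 3 with eBayes without trend and 29 without the fold limit. The 0 lowered calls became 1 in 1 fit over all libraries, 1 at adjusted p below 0.05 and 3 without the fold limit. In F1 the 11 induced calls became 1 with eBayes without trend, 5 after the GC and length correction and 19 at adjusted p below 0.05. The 1 lowered call became 0 with a pseudocount of 1, median-of-ratios scaling, no trend, the replicate block, the correction or edgeR, and 2 at adjusted p below 0.05. Except for the looser thresholds, the cause was not tested.

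Leaving out each library in turn gave 15 to 16 rises and 4 to 6 decreases in the founders, and 12 to 15 and 4 to 6 in F1. It gave 10 to 20 induced and 0 to 1 lowered calls within strains, 5 to 19 and 0 to 2 within crosses, 6 to 13 strain differences among controls, and 0 to 0 interactions.

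Some means changed sign. After the GC and length correction the founder means were 0.24 for Sec61b, -0.22 for Sec61g, -0.18 for Srp54a, -0.25 for Spcs1, 0.0076 for Asna1, 0.0043 for Bag6, -0.018 for Emc3 and 0.042 for Emc10, and the F1 means were -0.17 for Sec61g, -0.30 for Spcs1, 0.10 for Get4, -0.044 for Emc2 and -0.13 for Emc6. By edgeR the founder means were 0.012 for Sec61b and -0.016 for Srp54a, and the F1 mean 0.0042 for Get4. With the replicate block the F1 mean of Sec61a1 was -0.015. Without single libraries the founder means ran from -0.053 to 0.026 for Sec61b and -0.065 to 0.0070 for Sec61a2, and the F1 means from -0.019 to 0.022 for Sec61a1, -0.041 to 0.075 for Emc6, -0.039 to 0.012 for Get4 and -0.0044 to 0.15 for Spcs1. With at most 3 libraries in a group, small differences between genotypes were not detectable.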
